A study of Mus musculus with 12 samples.

Results

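The genes described here encode the muscle nicotinic acetylcholine receptor and the proteins that cluster it at the neuromuscular synapse. They were chosen by name from the deposited gene count table: 10 genes, of 54532 in all. The members are the receptor subunit genes Chrna1, Chrnb1, Chrnd, Chrng and Chrne, together with Agrn, Lrp4, Musk, Dok7 and Rapsn, and all 10 were found in the table. Messenger RNA was sequenced from C2C12, an established mouse skeletal muscle line whose cells the sample titles call myoblasts. Fully confluent dishes were exposed for 24 h to perfluorooctanesulfonate (PFOS), a persistent fluorinated surfactant, at 0, 2 or 6 µM, with 4 libraries per dose. All groups come from 1 cell line without nerve, and neither the carrier used at 0 µM nor the culture medium is stated in the labels. Whether the 4 libraries at a dose are from different cultures is not stated either, so a p-value here reflects only how far these libraries spread, which may be technical.

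The muscle receptor is a pentameric cation channel that opens when acetylcholine reaches the muscle fibre. Embryonic and denervated muscle builds it from alpha, beta, delta and gamma subunits, and innervated adult muscle replaces gamma with epsilon. Agrin released by the motor nerve binds LRP4, which activates the receptor tyrosine kinase MuSK. With its adaptor DOK7, active MuSK leads rapsyn to anchor receptors in dense clusters under the nerve ending. Muscle regulatory factors such as MyoD and myogenin switch on several of these genes through E-boxes in their promoters as myoblasts differentiate.

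Total gene counts ran from 30206155 to 50351082 per library. Counts were normalised to CPM (counts scaled to a common library total) with TMM-scaled library sizes, and differences were tested with edgeR's quasi-likelihood test on the whole table of 16038 genes that passed a filter on low counts. A gene is said to have risen or fallen only at a Benjamini-Hochberg adjusted p under 0.05. Of the 10 members, 9 passed the filter, and Chrne did not. The libraries farthest from the mean of their dose over all tested genes were 6 µM replicates 2 and 3 and 0 µM replicate 1, with root mean square log2 deviations of 0.424, 0.422 and 0.402, and the others ran from 0.339 to 0.390. Markers of muscle were present: Des, the muscle intermediate filament gene, averaged 239 CPM over the 12 libraries and Myod1 averaged 27.2 CPM. Pax7, a satellite cell marker, had 87 counts in all. Of 8 markers of motor neurons, Mnx1, Slc18a3 and Slc5a7 had no count and Chat had 2 counts, while Tubb3 averaged 20.9 CPM and Isl1 averaged 16.5 CPM, the only 2 of the list that were tested. Of 8 markers of Schwann cells, Sox10 and Foxd3 had no count, while Pmp22 averaged 232 CPM. Of the fibroblast markers Col1a1 averaged 4058 CPM and Tcf21 had no count.

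At 6 µM PFOS, 3 members fell against 0 µM: Lrp4, Chrna1 and Chrng. None rose. At 2 µM only Lrp4 fell, and between 6 and 2 µM no member passed the test. The falls were modest for Lrp4 and Chrna1, at 1.27-fold and 1.24-fold, and larger but less certain for Chrng, at 1.93-fold. Chrnd was low in 3 of the 4 libraries at 6 µM but not in the remaining one, and did not pass. In bulk RNA, fewer cells of a type and less RNA per cell cannot be told apart. For Agrn, Chrnb1, Dok7, Musk and Rapsn no comparison passed the test.

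**Figure D1:**
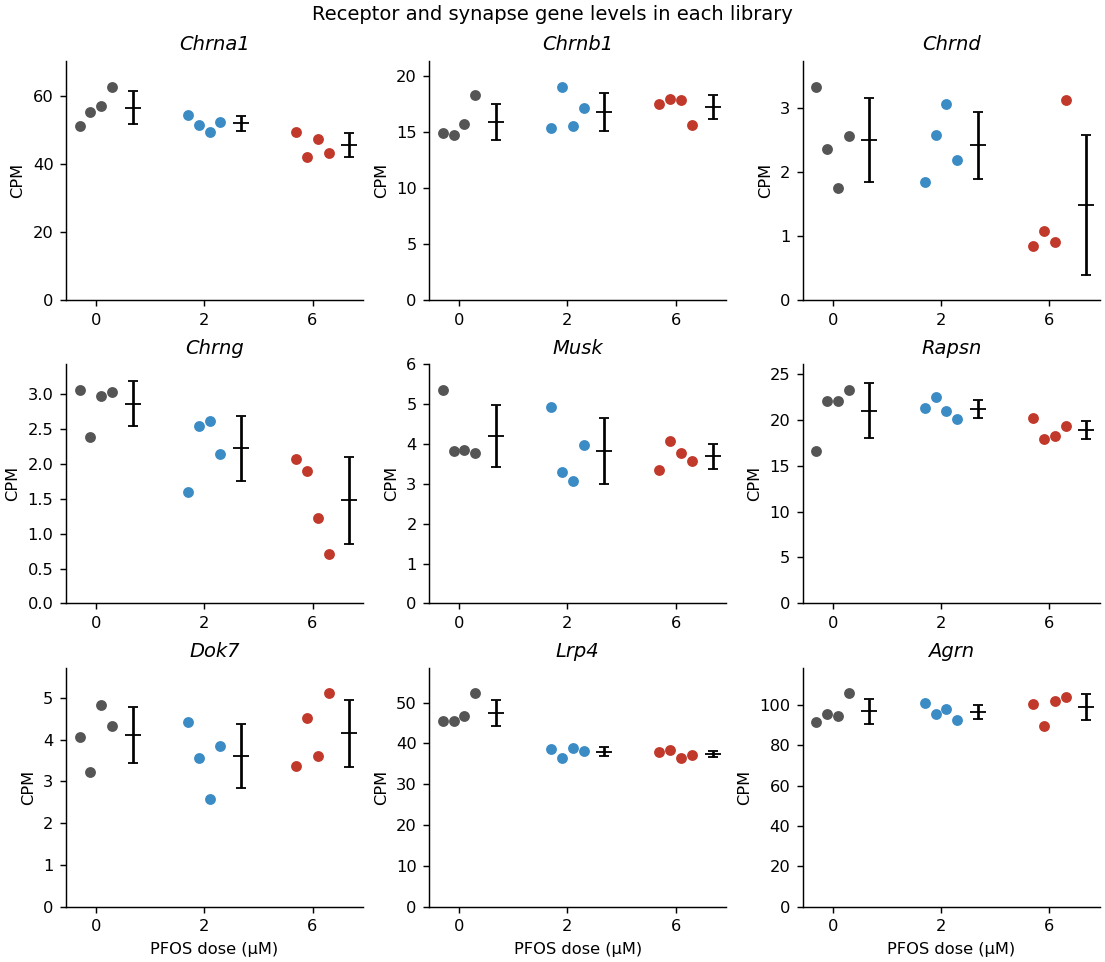
CPM (scaled counts) of the 9 tested members in each library, by PFOS dose in µM. Each point is 1 library, and the black bar is the mean with its SD over 4 libraries. Lrp4 sits between 36.4 and 38.8 CPM in every PFOS library and between 45.4 and 52.3 CPM at 0 µM, and Chrnd at 6 µM has 1 library at 3.12 CPM beside 3 near 1 CPM.

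Beside the whole table these counts read as follows. The members were chosen with earlier results of these data known, so the shares are a description and no test of an excess. At 6 against 0 µM, 3 of the 9 tested members fell and 0 rose, while 3.66% of all tested genes fell and 4.58% rose, 8.24% in either direction. At 2 against 0 µM, 1 of the 9 fell and 0 rose, while 0.742% of all tested genes fell and 1.61% rose, 2.35% in either direction. At 6 against 2 µM, 0 of the 9 were called by edgeR and 0 by DESeq2, with Chrna1 and Chrng at an unadjusted p under 0.05. In that comparison 0.549% of all tested genes fell and 0.561% rose, 1.11% in either direction. The CPM ranges of 3 members did not overlap at 6 against 0 µM, beside 12.5% of all tested genes. At 2 against 0 µM the ranges of 1 member did not overlap, beside 8.37% of all tested genes, and at 6 against 2 µM this held for 0 members, beside 8.6%. The median log2 fold change of the 9 was -0.18 at 6 against 0 µM, beside -0.02 over all tested genes, and -0.12 at 2 against 0 µM, beside -0.01. Both comparisons share the 0 µM libraries, so their values are not independent.

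**Figure D2:**
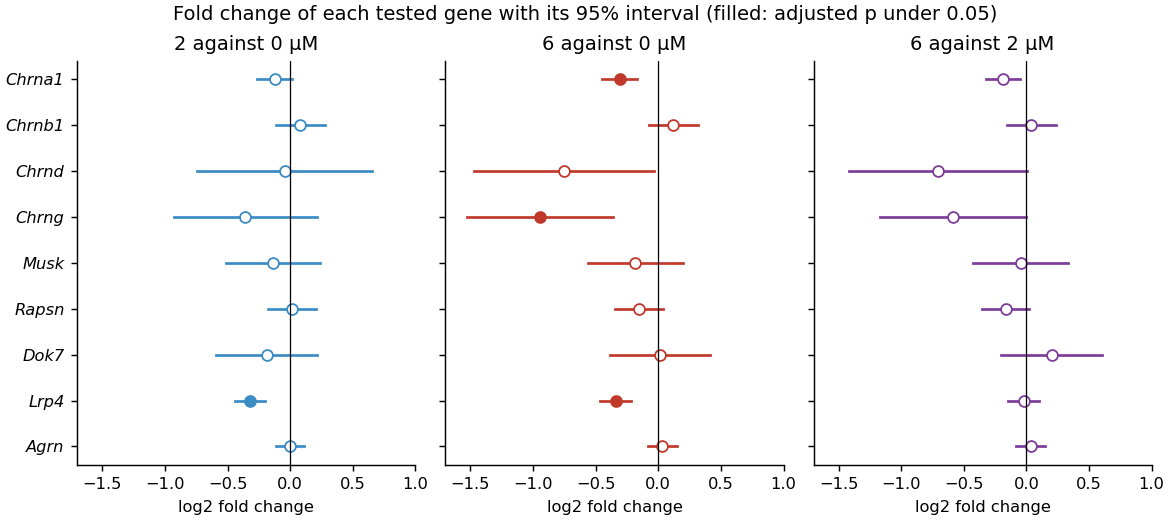
Log2 fold change of the 9 tested members in the comparisons of 2 with 0, 6 with 0 and 6 with 2 µM PFOS, with 95% intervals. Filled points passed the test: Lrp4 at both doses against 0 µM, and Chrna1 and Chrng at 6 µM. The intervals of Chrnd and Chrng are the widest, and their counts are the lowest.

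Among the receptor subunits, Chrna1 encodes the alpha subunit, which carries the acetylcholine binding site and is present in the fetal and the adult receptor. It had 49.6, 42.3, 47.5 and 43.4 CPM in the 4 libraries at 6 µM, against 51.3, 55.3, 57.1 and 62.8 CPM in those at 0 µM. The highest 6 µM library lay below the lowest 0 µM library. Chrna1 fell by 0.31 on the log2 scale (SE 0.0666), and edgeR's quasi-likelihood test gave an adjusted p of 0.00473. At 2 µM its libraries had 54.4, 51.6, 49.4 and 52.5 CPM, within or just under the range at 0 µM. The log2 fold change there was -0.12 (SE 0.0663), with an adjusted p of 0.422 by edgeR. Between 6 and 2 µM it was -0.19, with an adjusted p of 0.217 by edgeR, although the interval of -0.32 to -0.05 lay below 0 before adjustment. Without any 1 of the 12 libraries Chrna1 was still called at 6 against 0 µM, with adjusted p values of 0.00182 to 0.0216 by edgeR. The gene (ENSMUSG00000027107) is protein coding and spans bases 73563215 to 73580338 of chromosome 2, minus strand (GRCm38).

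Chrng encodes the gamma subunit of the fetal receptor. It had 2.08, 1.90, 1.23 and 0.711 CPM at 6 µM, against 3.06, 2.38, 2.97 and 3.03 CPM at 0 µM. The groups did not overlap, but the 6 µM libraries spread widely, from 90 counts down to 28 counts. Chrng fell by 0.95 on the log2 scale (SE 0.281), and edgeR's quasi-likelihood test gave an adjusted p of 0.0386. At 2 µM it had 1.59, 2.54, 2.61 and 2.15 CPM and a log2 fold change of -0.36 (SE 0.275), with an adjusted p of 0.612 by edgeR. The call at 6 µM ended without 0 µM replicates 1, 3 or 4, where edgeR gave adjusted p values of 0.0693, 0.0832 and 0.0709. It also ended without 6 µM replicates 3 or 4, at 0.108 and 0.103, so it held in 7 of the 12 fits that each left out 1 library. Without 0 µM replicate 1 and 6 µM replicates 2 and 3, the libraries farthest from the mean of their dose, it was 0.147.

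Chrnd encodes the delta subunit and is the neighbour of Chrng: both lie on the plus strand of chromosome 1, Chrnd from 87190607 to 87200070 and Chrng from 87204657 to 87212694 (GRCm38), with 4586 bases between them. Chrnd had 0.853, 1.08, 0.902 and 3.12 CPM at 6 µM, against 3.34, 2.36, 1.75 and 2.57 CPM at 0 µM. The first 3 of the 6 µM libraries lay below all at 0 µM, and 6 µM replicate 4 lay near the top of that range. In that same library Chrng was at its lowest, with 28 counts beside 123 counts of Chrnd. The log2 fold change of Chrnd at 6 against 0 µM was -0.75 (SE 0.345), with an adjusted p of 0.205 by edgeR. Without 6 µM replicate 4 it was -1.40, with an adjusted p of 0.00457 by edgeR, while Chrng was then -0.72, at an adjusted p of 0.103. Without 0 µM replicate 1 and 6 µM replicates 2 and 3, Chrnd was at -0.16 with an adjusted p of 0.88 by edgeR. At 2 µM Chrnd had 1.85, 2.58, 3.07 and 2.19 CPM, inside the range at 0 µM, and a log2 fold change of -0.04.

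Chrnb1 encodes the beta subunit, which is phosphorylated on tyrosine when agrin activates MuSK. It had 17.5, 18.0, 17.8 and 15.7 CPM at 6 µM, against 14.9, 14.8, 15.7 and 18.3 CPM at 0 µM, and the groups overlapped. Its log2 fold change was 0.12, with a 95% interval of -0.08 to 0.31 and an adjusted p of 0.519 by edgeR. The interval leaves out a fall of the size of that of Chrna1. Per gene length, Chrnb1 stood at 61.0% to 73.8% of the level of Chrna1 at 6 µM, against 46.3% to 50.4% at 0 µM. At 2 µM this share was 49.0% to 64.0%. The shares at 6 and 0 µM did not overlap, and the difference between the subunits was not tested.

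Chrne encodes the epsilon subunit of the adult receptor and was close to undetected. Its counts were 0 in all 4 libraries at 6 µM, 0, 0, 4 and 2 at 2 µM, and 0, 0, 0 and 2 at 0 µM. A count of 0 in a library allows a level of up to 0.0677 to 0.0762 CPM at 6 µM, which covers counting error only. Per gene length, fetal Chrng was at least 34.5-fold higher than Chrne at 6 µM, taking 3 counts over the 4 libraries as the floor. This bound leaves out the counting error of Chrng. At 0 µM the ratio was 85.7, with an exact 95% counting interval of 23.6 to 710, from 422 counts of Chrng and 2 of Chrne. At 2 µM it was 26.8, with an interval of 12.2 to 73.5, from 396 counts of Chrng and 6 of Chrne. The gene overlaps 4930544D05Rik on the other strand, which had 0 counts. Of the 11 nicotinic subunit genes of neuronal type, only Chrnb2 passed the filter, with a mean of 2.29 ± 0.414 CPM at 6 µM and 1.86 ± 0.262 CPM at 0 µM (SD, n = 4 each) and an adjusted p of 0.502 by edgeR, and 7 had no count in any library.

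The promoters of 7 of the 10 members were in the RefSeq table (GRCm38.p6), and those of Lrp4, Chrnd and Rapsn were not. Each window holds 250 bases before the start site and 50 after it. The windows of 4 receptor subunit genes are shown 5′ to 3′ because Chrna1 and Chrng fell at 6 µM, Chrnb1 did not pass, and Chrne was near 0. Capitals mark matches to the E-box CANNTG, read by MyoD and myogenin, and to the N-box CCGGAA, read by ETS factors.
Chrna1 promoter, chr2:73580289-73580588, minus strand: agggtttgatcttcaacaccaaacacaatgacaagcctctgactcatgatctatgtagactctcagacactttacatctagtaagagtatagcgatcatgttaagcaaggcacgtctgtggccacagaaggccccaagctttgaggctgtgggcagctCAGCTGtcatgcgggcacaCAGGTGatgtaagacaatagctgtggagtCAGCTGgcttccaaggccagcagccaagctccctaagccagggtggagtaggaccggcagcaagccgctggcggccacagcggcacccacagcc
Chrng promoter, chr1:87205561-87205860, plus strand: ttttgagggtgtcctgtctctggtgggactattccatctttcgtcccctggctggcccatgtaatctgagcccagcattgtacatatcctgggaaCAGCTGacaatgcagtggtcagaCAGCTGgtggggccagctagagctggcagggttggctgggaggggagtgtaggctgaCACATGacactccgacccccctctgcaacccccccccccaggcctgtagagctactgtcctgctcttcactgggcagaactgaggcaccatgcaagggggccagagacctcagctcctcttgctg
Chrnb1 promoter, chr11:69795888-69796187, minus strand: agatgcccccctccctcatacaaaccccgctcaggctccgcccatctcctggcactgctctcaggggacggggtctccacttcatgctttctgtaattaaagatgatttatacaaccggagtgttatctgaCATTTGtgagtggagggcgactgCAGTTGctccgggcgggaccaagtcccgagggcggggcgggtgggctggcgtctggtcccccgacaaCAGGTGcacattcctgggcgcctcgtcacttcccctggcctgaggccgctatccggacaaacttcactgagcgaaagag
Chrne promoter, chr11:70619145-70619444, minus strand: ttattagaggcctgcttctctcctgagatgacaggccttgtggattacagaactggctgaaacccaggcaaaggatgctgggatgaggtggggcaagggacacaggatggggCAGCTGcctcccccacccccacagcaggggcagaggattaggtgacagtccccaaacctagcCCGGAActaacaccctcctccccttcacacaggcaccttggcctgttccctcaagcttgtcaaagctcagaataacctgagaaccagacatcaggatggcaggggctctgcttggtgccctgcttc
Both strands were searched, and no E-box in these windows overlapped an N-box. Chrna1 and Chrng each held 3 E-boxes, of which 2 had the letters CAGCTG. Their first bases lay at -92 and -44 from the start site of Chrna1 and at -155 and -132 from that of Chrng. Chrnb1 held 3 E-boxes, none of them CAGCTG, but its E-box at -29 was CAGGTG, which Chrna1 also held, at -73. Chrne held 1 CAGCTG and 1 N-box. The window of Musk, which did not pass, held 3 E-boxes, 1 of them CAGCTG. Dok7 and Agrn had 2 windows each, with no CAGCTG and at most 1 E-box in a window. A link between these letters and the falls was not tested. Of 32851 promoter windows of the same length over all genes, 72.3% held an E-box, 16.3% held CAGCTG, 1.9% held it 2 or more times, and 14.9% held the N-box. A match of letters is not a bound site, and binding was not measured.

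Among the genes of receptor clustering, Lrp4 encodes the muscle receptor for agrin. It had 37.8, 38.3, 36.4 and 37.2 CPM at 6 µM, against 45.4, 45.5, 46.7 and 52.3 CPM at 0 µM. At 2 µM it had 38.7, 36.5, 38.8 and 38.0 CPM. All 8 PFOS libraries lay below the 4 libraries without PFOS. Lrp4 fell by 0.34 on the log2 scale at 6 µM (SE 0.0595), with an adjusted p of 0.000754, and by 0.32 at 2 µM (SE 0.0594), with an adjusted p of 0.00609, both by edgeR's quasi-likelihood test. The doses themselves differed by -0.02, with a 95% interval of -0.14 to 0.10. The call held whichever single library was left out, at adjusted p values up to 0.00481 at 6 µM and 0.0293 at 2 µM by edgeR. Lrp4 (ENSMUSG00000027253) is protein coding and spans bases 91457511 to 91513779 of chromosome 2, plus strand (GRCm38).

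Agrn, which encodes agrin itself, was the member with the highest CPM, and its counts do not separate the nerve isoform from the muscle isoform. It had 100.4, 89.4, 102 and 104 CPM at 6 µM, against 91.5, 95.5, 94.6 and 106 CPM at 0 µM, and the groups overlapped throughout. Its log2 fold change of 0.03 had a 95% interval of -0.08 to 0.15, the narrowest among the members in that comparison. At 2 against 0 µM its interval was again the narrowest among the members, at -0.12 to 0.11.

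Musk, the gene of the kinase activated through LRP4, had 3.34, 4.09, 3.77 and 3.58 CPM at 6 µM, against 5.36, 3.83, 3.85 and 3.78 CPM at 0 µM. The 0 µM libraries other than replicate 1 lay inside the range at 6 µM. Its log2 fold change was -0.18, with a 95% interval of -0.56 to 0.19 and an adjusted p of 0.621 by edgeR. Dok7, the gene of the MuSK adaptor, had 3.37, 4.51, 3.61 and 5.11 CPM at 6 µM, against 4.07, 3.23, 4.82 and 4.33 CPM at 0 µM. Its log2 fold change was 0.01, with a 95% interval of -0.39 to 0.41, which runs from a ratio of 0.764 to a ratio of 1.33.

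Rapsn encodes rapsyn, the scaffold that anchors the receptor. It had 20.1, 17.9, 18.2 and 19.3 CPM at 6 µM, against 16.6, 22.0, 22.0 and 23.2 CPM at 0 µM. The 0 µM libraries other than replicate 1 were above all 6 µM libraries, and replicate 1 was below them. The log2 fold change was -0.15, with a 95% interval of -0.34 to 0.04 and an adjusted p of 0.357 by edgeR. Leaving out 0 µM replicate 1 gave -0.25 and an adjusted p of 0.0571 by edgeR. Rapsn overlaps Gm13778 on the other strand over 1638 bases, but that gene had 69 counts in all beside 10109 of Rapsn.

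**Figure D3:**
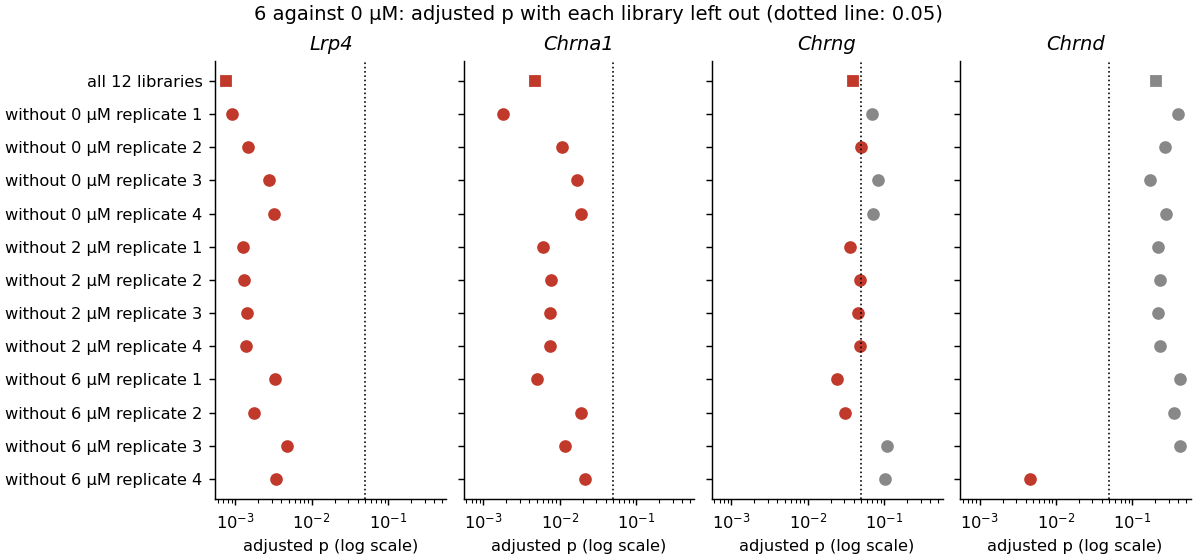
Adjusted p by edgeR at 6 against 0 µM with all 12 libraries (squares) and with each library left out (circles), on a log axis, for Lrp4, Chrna1, Chrng and Chrnd. Red marks lie under 0.05. Lrp4 and Chrna1 stay under it in all 12 such fits, Chrng in 7 of them, and Chrnd only without 6 µM replicate 4.

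The members differed widely in level. Per kb of the gene length given in the table, Chrna1 had the highest mean at 0 µM, at 12.9 ± 1.09 CPM per kb, followed by Rapsn at 11.6 ± 1.65 and Agrn at 10.4 ± 0.664 (SD, n = 4 each). The ranges of Chrna1 and Rapsn overlapped, as did those of Rapsn and Agrn. Chrnb1 at 6.29 ± 0.643 and Lrp4 at 4.52 ± 0.31 CPM per kb lay below them, with no overlap between neighbours. Musk at 1.11 ± 0.204, Dok7 at 0.962 ± 0.156, Chrnd at 0.762 ± 0.199 and Chrng at 0.688 ± 0.0773 CPM per kb followed, and each of these overlapped the next. Chrnd thus stood at 4.09% to 8.68%, and Chrng at 4.54% to 6.29%, of the level of Chrna1 at 0 µM. At 6 µM the share of Chrng was 1.73% to 4.73%, which overlaps that at 0 µM. Gene length is only an approximation to the length of the transcript counted.

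**Figure D4:**
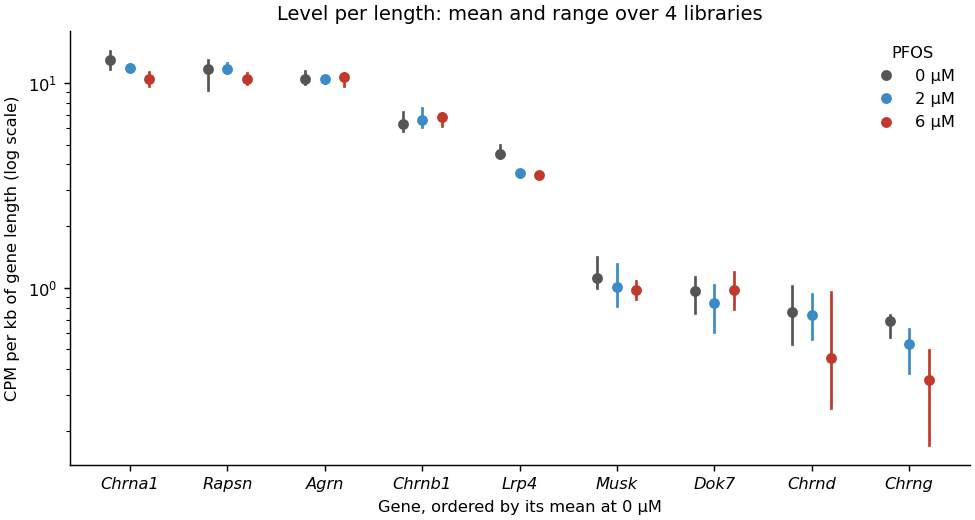
CPM per kb of gene length, on a log axis, for the 9 tested members at 0, 2 and 6 µM PFOS. Points are means and lines run from the lowest to the highest of 4 libraries. The members fall into a group above 3 CPM per kb and a group at or below 1.42 CPM per kb that holds Musk, Dok7, Chrnd and Chrng.

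Other synaptic genes were described from lists chosen with earlier results of these data known, whose counts at 6 against 0 µM stand beside 3.66% of all tested genes lower and 4.58% higher. Of 34 further scaffold and basal lamina genes, 30 were tested, 4 rose and 5 fell at 6 against 0 µM, and their median log2 fold change was -0.00, near that of all tested genes. Dtna, which encodes the dystrophin partner alpha-dystrobrevin, fell 1.39-fold, with 13.4 ± 0.964 CPM at 6 µM and 18.7 ± 2.08 CPM at 0 µM (SD, n = 4 each) and an adjusted p of 0.00215 by edgeR. Lama5, a laminin chain of the synaptic basal lamina, rose 1.29-fold to 381 ± 11.4 CPM at 6 µM, against 296 ± 30.5 CPM at 0 µM, and Ank3, which encodes ankyrin-G, rose 1.3-fold. Without 0 µM replicate 1 and 6 µM replicates 2 and 3, 2 genes of this list rose and 2 fell, and Dtna had an adjusted p of 0.0894 by edgeR. Without 6 µM replicate 1, 2 rose and 3 fell. Ache, the acetylcholinesterase gene, had 9.98 ± 1.04 CPM at 6 µM and 12.1 ± 2.39 CPM at 0 µM, with an adjusted p of 0.223 by edgeR. At 2 µM Ache had 8.93 ± 1.01 CPM, a log2 fold change of -0.44 against 0 µM, at adjusted p 0.0859 by edgeR, 0.0305 by edgeR with no filter and 0.0408 by DESeq2. Colq, which encodes the collagen tail of the enzyme, did not pass the filter, with 65 counts in all.

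Of 34 genes of MuSK and neuregulin signalling, 33 were tested, 1 rose and 1 fell at 6 against 0 µM. Abl2, which encodes a kinase that acts with MuSK, rose 1.21-fold, to 83.2 ± 4.73 CPM at 6 µM against 69.0 ± 7.04 CPM at 0 µM. Camk2b, which encodes a calcium and calmodulin dependent kinase, fell 1.37-fold. Its adjusted p by edgeR was 0.0604 without 0 µM replicate 4, and 0.054 and 0.074 without 6 µM replicates 2 and 3 in turn. With 0 µM replicate 1 and 6 µM replicates 2 and 3 all left out, Camk2b was at -0.29 with an adjusted p of 0.31 by edgeR. Etv5, the gene of an ETS factor that acts at the synapse, had 72.8 ± 3.42 CPM at 6 µM and 63.5 ± 6.28 CPM at 0 µM, at adjusted p 0.0566 by edgeR, 0.0109 by edgeR without 0 µM replicate 3, and 0.0267 by DESeq2. Of 15 genes of receptor biogenesis, 14 were tested and none passed at 6 against 0 µM by edgeR (0 of 14, with 1 at an unadjusted p under 0.05), while DESeq2 called 1, Hspa5, higher.

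Of 20 genes of myogenic factors, histone deacetylases and further transcriptional regulators such as Sp1, Srf and the Id genes, 18 were tested. At 6 against 0 µM, 2 rose and 5 fell. Myog fell 1.76-fold, with 4.06 ± 0.236 CPM at 6 µM and 7.15 ± 1.25 CPM at 0 µM, and Myod1 fell 1.3-fold, with 23.2 ± 1.52 and 30.3 ± 2.57 CPM in that order (SD, n = 4 each). Mef2c and Mef2a, which encode factors that act with them, fell 1.3-fold and 1.22-fold, and Id3, named outside the rule for naming genes, fell as well. Hdac4, which encodes a deacetylase that takes part in the response of muscle to denervation, rose to 60.1 ± 2.51 CPM at 6 µM and 59.4 ± 2.66 CPM at 2 µM, against 46.1 ± 2.76 CPM at 0 µM. Its adjusted p values by edgeR were 0.000181 and 0.00153. Like Lrp4, Hdac4 thus differed from 0 µM at both doses. Without 0 µM replicate 1 and 6 µM replicates 2 and 3, 1 gene of this list rose and 4 fell. Mef2a then had an adjusted p of 0.0573 by edgeR.

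**Figure D5:**
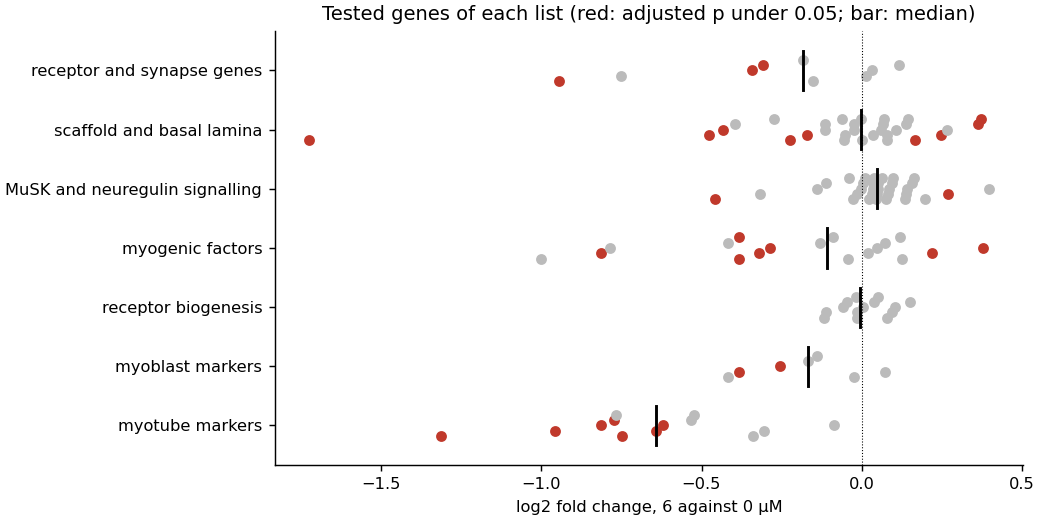
Log2 fold change at 6 against 0 µM of each tested gene of 7 lists. Red points passed the test, grey points did not, and the black bar is the list's median. The median of the receptor and synapse genes is -0.18 and that of the myotube markers -0.64. The list labelled myogenic factors, which also holds deacetylases and further regulators, has a median of -0.11.

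Markers of differentiated muscle moved in the same comparison as Chrna1, Chrng and Lrp4. Of 15 such genes, 13 were tested, and 7 fell and none rose at 6 against 0 µM, with a median log2 fold change of -0.64. Over all tested genes 3.66% fell and 4.58% rose, and the median was -0.02. Their summed level was 69.6 to 80.5 CPM at 6 µM, against 110.7 to 135 CPM at 0 µM, and 81.1 to 105 CPM at 2 µM. Tnnt1, a troponin gene, fell 1.94-fold, Actc1, the cardiac actin gene of early muscle, fell 2.49-fold, and Ttn, the titin gene, fell 1.56-fold. Of 8 myoblast markers, 7 were tested and 2 fell, Myod1 and Cdh15. The lists share genes: Myod1 here and Myog of the myotube markers were also counted with the myogenic factors above. The call of Cdh15 held in only 5 of the 12 fits that left out 1 library, those without 0 µM replicate 1, 2 µM replicates 1, 2 or 4, or 6 µM replicate 4, and its adjusted p otherwise ran up to 0.128 by edgeR. The part of these markers in the lower levels of the receptor genes was not tested. Summed levels of the fibroblast markers were 5913 to 6280 CPM at 6 µM, against 6283 to 7987 CPM at 0 µM, nearly all from Col1a1 and Col3a1. Those of the Schwann cell markers were 203 to 226 CPM at 6 µM, against 245 to 261 CPM at 0 µM, nearly all from Pmp22. In these lists 1 of 6 and 1 of 5 tested genes fell, Col3a1 and Pmp22. Motor neuron markers summed to 34.4 to 40.9 CPM at 6 µM, against 31.9 to 42.9 CPM at 0 µM, but the 2 tested genes, named here after their values were seen, had log2 fold changes of opposite sign. Tubb3 had 23.2 ± 2.22 CPM at 6 µM and 18.4 ± 3.24 CPM at 0 µM, a log2 fold change of 0.34 at an adjusted p of 0.0517 by edgeR. Isl1 had 14.4 ± 3.28 CPM at 6 µM and 18.5 ± 2.70 CPM at 0 µM, a log2 fold change of -0.36 at an adjusted p of 0.0952 by edgeR. Tubb3 was called higher with RLE factors, with no filter and by DESeq2, and Isl1 was called lower with no filter.

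At 2 against 0 µM the calls in the further lists stand beside 0.742% of all tested genes lower and 1.61% higher. Hdac4 rose, 1 of 18 tested genes in the list of myogenic factors, histone deacetylases and further regulators. Its call held in all 12 fits that left out 1 library. Fyn and Dnaja3, named outside the rule, rose among the 33 tested signalling genes, with calls that held in 8 and 7 of the 12 fits. The adjusted p of Fyn was up to 0.143 by edgeR, without 2 µM replicate 4, and that of Dnaja3 up to 0.142, without that same library. Of the 13 tested myotube markers 1 fell, Mylpf, named outside the rule. With 1 library left out at a time, 0 to 2 of these markers were called, so the call of Mylpf did not hold in every fit. Pmp22, of 5 tested Schwann cell markers, and Col3a1, of 6 tested fibroblast markers, also fell at 2 µM. Each of these 2 calls held in only 2 of the 12 fits, with adjusted p values otherwise up to 0.146 and 0.181 by edgeR.

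The tested genes outside the members whose log2 CPM followed Chrna1 most closely over the 12 libraries were Mtss1l, Clec11a, Col3a1, Mmp14 and Col1a2, with Pearson correlations from 0.90 to 0.94. After removal of the mean of each dose the values were 0.73 to 0.81. All 12 libraries share the same normalisation, and these values are descriptive. Among the members themselves, Lrp4 was most like Chrna1, at 0.74, then Rapsn at 0.68 and Chrng at 0.65. Within doses, Agrn and Rapsn each had 0.66 and Chrng had 0.08. In 0 µM replicate 4 Chrna1, Chrnb1, Lrp4, Rapsn and Agrn were each at their highest among the 0 µM libraries. For Musk the closest genes were Gm5558, Uqcr10, Gm5809, Mettl24 and Cd63-ps, at 0.87 to 0.92, and none of these 5 passed at 6 against 0 µM by edgeR. Gm5558 averaged 0.633 CPM and Gm5809 averaged 0.438 CPM at 0 µM, levels at which counting error is large. Musk itself had a library far from the others, 0 µM replicate 1 at 5.36 CPM.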

How the data were processed

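Messenger RNA libraries of C2C12 cells were counted per gene by the authors, and the deposited table holds raw counts per gene for 12 libraries. The submitters' processing notes name HISAT2 and GRCm39, without versions or a counting tool. Of 54409 genes shared with GENCODE M21 (GRCm38), 98.3% had the same position, so the coordinates printed are those of GRCm38. The strand setting of the counting is not given in the sources used here.

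Counts were tested in edgeR 4.0.16 (R 4.3.3): filterByExpr by dose left 16038 of 54532 genes, library sizes were TMM-scaled, 1 mean per dose was fitted over the 12 libraries (9 residual degrees of freedom) with glmQLFit and glmQLFTest, and p-values were adjusted by Benjamini-Hochberg over all tested genes. The standard error of a log2 fold change was its size divided by the square root of F. CPM values use the TMM-scaled totals, and levels between genes were divided by the gene length in the table. Correlations used log2 CPM with a prior count of 2. Alternatives were other scaling factors, no filter, DESeq2 1.42.0, fewer doses, a replicate block and libraries left out. The test was also run on simulated data with known changes. The interval of a ratio of counts is 95% exact binomial and covers counting error only.

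All 10 members were named. Of each other list up to 4 called genes with the smallest adjusted p at 6 against 0 µM were named, with Ache, Colq, Etv5, Myod1 and Myog whatever their p, and the 5 genes most like Chrna1 and Musk. A result that this rule would name is not reported here. The members and lists were chosen with earlier results of these data known. The counts of the other lists under each alternative were added after seeing the data.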

Additional observations from a re-analysis of the deposited data

Results flagged for a closer look

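Of the 27 groups of 4 libraries examined, one for each tested member at each dose, 3 held a library far from the other 3 by Dixon's test, where chance gives about 1 in 20. Chrnd had 3.12 CPM in 6 µM replicate 4, and the nearest of the other 6 µM libraries had 1.08 CPM. Chrng had 2.38 CPM in 0 µM replicate 2, below the nearest other at 2.97 CPM. Musk had 5.36 CPM in 0 µM replicate 1, above the nearest other at 3.85 CPM.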

How the results depend on the processing

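Member fold changes under the other settings numbered 189. These settings kept all libraries, kept only the 2 doses compared, or left out 3 libraries. Of the 189, 177 kept their direction and their side of the threshold, 2 lost the call and 10 turned direction. Both losses were Chrng at 6 against 0 µM, with an adjusted p of 0.0658 by edgeR on those 2 doses alone and 0.147 without 0 µM replicate 1 and 6 µM replicates 2 and 3. None of the log2 fold changes that turned was called. That of Musk at 2 against 0 µM was -0.14 with all libraries. Without those 3 libraries the values that turned were 0.13 for Chrnd, 0.00025 for Musk and -0.0793 for Rapsn at 2 against 0 µM, and -0.0136 for Chrnb1 at 6 against 2 µM. Upper-quartile factors gave -0.0018 for Rapsn at 2 against 0 µM and -0.00050 for Dok7 at 6 against 0 µM. Agrn at 2 against 0 µM was 0.0017 with RLE factors, 0.0034 with no filter, 0.0033 on the 2 doses alone and 0.0023 by DESeq2.

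All genes called at 2 against 0 µM numbered 631 with no filter and 741 by DESeq2, beside 377. At 6 against 0 µM they numbered 710 without the 3 libraries, beside 1322. At 6 against 2 µM they numbered 401 with no filter, 307 on the 2 doses alone and 420 by DESeq2, beside 178. The cause was not tested. Upper-quartile factors gave 598 genes higher and 662 lower at 6 against 0 µM, and 184 and 134 at 2 against 0 µM, against 735 and 587, and 258 and 119, with TMM.

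With 1 library left out at a time, all genes called ranged from 106 to 490 at 2 against 0 µM, from 918 to 1343 at 6 against 0 µM and from 82 to 259 at 6 against 2 µM. Members called ranged from 1 to 1, from 2 to 3 and from 0 to 1 in those comparisons. The 1 was Chrnd without 6 µM replicate 4, at -1.35. Log2 fold changes that turned were Chrnd (-0.18 to 0.12), Rapsn (-0.0809 to 0.0651) and Agrn (-0.0278 to 0.0424) at 2 against 0 µM, Dok7 (-0.10 to 0.10) at 6 against 0 µM, and Chrnb1 (-0.00061 to 0.11) and Musk (-0.13 to 0.10) at 6 against 2 µM.

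Same-numbered libraries did not deviate together: correlations ran from -0.03 to 0.04, 0 of 12 pairs were over 0.1, and 5 of 12 libraries correlated best with their own number. These values cannot decide whether same-numbered libraries share a culture or day, because such sharing may leave little trace. With the replicate number as a replicate block, 273, 1154 and 123 genes were called at 2 against 0, 6 against 0 and 6 against 2 µM, and the members called were the same 1, 3 and 0. Chrnd and Chrng had the fewest counts of the tested members, 1043 and 1073 in all.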
